A study of Rattus norvegicus with 16 samples.

Results

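The comparison described here sets carotid body neuroblasts against carotid body glomus cells after both populations had been exposed to hypoxia for 3 days. Its members were the 4 arrays titled as hypoxic neuroblasts and the 4 titled as hypoxic glomus cells, 8 of the 16 arrays of the study. All cells came from Wistar rats of 9 to 11 weeks, and no genetic change or drug is recorded for any group. The carotid bodies of both sides were mixed, dispersed with enzymes and stained with an antibody to the HNK-1 epitope, and flow cytometry separated HNK-1 positive cells, collected as neuroblasts, from HNK-1 negative cells, collected as glomus cells. The hypoxic animals had been kept in hypoxic chambers, and 4 arrays of each population from animals in normoxia completed the study. Each array received biotinylated cDNA made from 500 pg of total RNA. Because the gate used a single epitope, the negative fraction could hold any carotid body cell without it.

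The carotid body is the arterial organ that senses low oxygen. Its glomus cells, also called type I cells, release transmitters onto the afferent nerve endings when oxygen falls, and they lie beside glia-like type II cells, fibroblasts, macrophages and a dense bed of capillaries. Sustained hypoxia makes the organ grow. Neuroblasts are the HNK-1 positive, immature cells of the carotid body, which divide and mature into glomus cells when hypoxia persists.

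After hypoxia the HNK-1 positive cells had more RNA for the peptide gene Prlh, the noradrenaline-forming enzyme gene Dbh, the neuronal splicing regulator Rbfox1, the glial and neuronal membrane protein gene Gpm6b and several genes of mitosis. They had less RNA for macrophage genes led by Pf4 and Cd74, for the endothelial junction gene Cldn5, and for the signalling genes Gngt2, Gnas and Notum. Population differences of many of these genes were found in normoxia as well. There they were 3.58 for Prlh, 3.74 for Dbh, 4.33 for Rbfox1 and 2.04 for Gpm6b on the log2 scale. They were -3.65 for Cldn5, -2.82 for Gngt2, -2.69 for Gnas, -2.75 for Notum and -1.83 for Pf4. That of Pf4 did not pass in normoxia. The mitosis gene Nusap1 stood at -0.33. Each probe was tested with limma and adjusted by Benjamini-Hochberg, and of 30429 probes 86 passed an adjusted p under 0.05 (0.283%), 42 of them higher in neuroblasts (0.138%) and 44 lower (0.145%). With 1 probe per gene, 75 of 18166 genes passed (0.413%), 36 higher (0.198%) and 39 lower (0.215%). The 75 differences lay between 2.67 and -4.62 on the log2 scale, where 1 is a 2-fold change, the smallest being 0.81 in size among all passing probes, while the median difference over all genes was 0.00. The 2 hypoxic groups were fully separated in 74 of the 75 genes, and over all probes this held for 4.48% (2.27% higher and 2.21% lower in neuroblasts). The 75 genes were called on these same values, so their separation adds no separate support. In bulk samples of this kind, fewer cells of a type and less RNA per cell cannot be told apart.

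**Figure D1:**
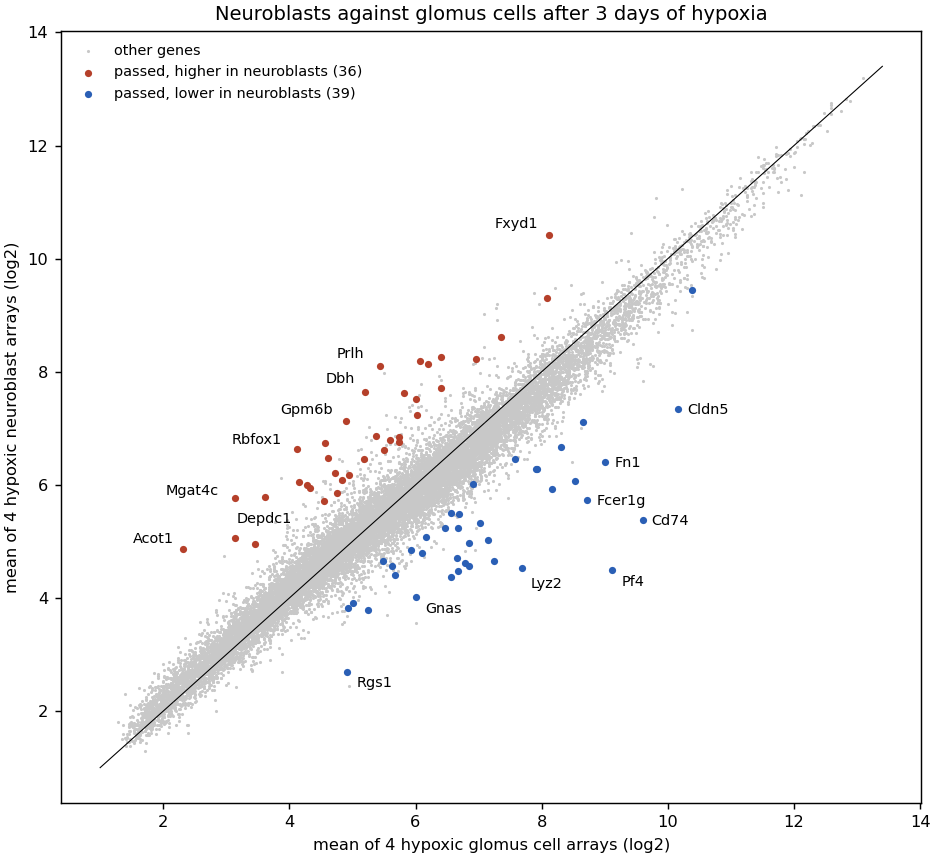
Mean log2 value of each of 18166 genes in the 4 hypoxic glomus cell arrays (horizontal axis) and the 4 hypoxic neuroblast arrays (vertical axis), with the line of equal values. Red points are the 36 genes that passed and were higher in neuroblasts, blue points the 39 that passed and were lower, and most other genes lie close to the line.

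The 4 hypoxic glomus arrays resembled each other closely, with a mean correlation of 0.969 to 0.971 between each array and the rest of its group. Hypoxic neuroblast replicate 1 stood apart. Its mean correlation with the other 3 arrays of its group was 0.914, against 0.949 for each of those 3. The 0.949 includes the correlation of each with replicate 1, which was 0.910 to 0.919. Replicate 1 had a median of 4.94 against 4.71 to 4.77, and an SD across probes of 1.78 against 1.99 to 2.09. Without it, 101 genes passed (0.556%), 62 higher (0.341%) and 39 lower (0.215%). Of the 36 higher genes 34 were kept without it, and of the 39 lower genes 33 were kept, while 28 higher and 6 lower genes were gained. Leaving out each of the 8 hypoxic arrays in turn, 37 of the 75 genes passed every time, 17 higher and 20 lower. Separate animals for the arrays of a group are not recorded in the labels, so the p-values measure the spread between these samples, which may be technical. No batch label is given, so a batch shared by all arrays of 1 group cannot be told apart from the group.

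Prlh, which encodes prolactin-releasing peptide, had the largest positive difference of the 75 genes. It read 5.50, 5.59, 5.23 and 5.45 on hypoxic glomus arrays 1 to 4 and 6.86, 7.68, 9.22 and 8.68 on hypoxic neuroblast arrays 1 to 4. The glomus arrays were nearly level, the neuroblast arrays spread widely, and the groups did not overlap. The difference of 2.67 ± 0.40 (SE) on the log2 scale was a fold of 6.35 (adjusted p = 0.00512).

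Dbh encodes dopamine beta-hydroxylase, which turns dopamine into noradrenaline. Its values were 4.92, 4.94, 5.74 and 5.19 on hypoxic glomus arrays and 6.40, 7.72, 7.86 and 8.57 on hypoxic neuroblast arrays. The lowest neuroblast value was that of replicate 1, and it still lay above every glomus array. The difference was 2.44 ± 0.34 (adjusted p = 0.00348), and 2.85 (adjusted p = 0.000254) without replicate 1. None of the other 13 measured genes of catecholamine synthesis, storage and uptake passed in hypoxia, and the median of the 14 was -0.15. Th, which encodes the rate-limiting tyrosine hydroxylase, read 11.98, 12.20, 12.45 and 11.81 on hypoxic glomus arrays and 9.40, 12.17, 11.48 and 11.46 on hypoxic neuroblast arrays. The groups overlapped, replicate 1 was far below the rest, and the difference of -0.98 ± 0.39 did not pass (adjusted p = 0.368).

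Rbfox1, a splicing regulator of neurons, read 3.98, 3.83, 4.49 and 4.16 on hypoxic glomus arrays and 7.18, 6.32, 6.49 and 6.52 on hypoxic neuroblast arrays. Every neuroblast array lay well above every glomus array, and here replicate 1 was the highest. The difference was 2.51 ± 0.27 (adjusted p = 0.000702). It was the single gene of 18 measured neuronal RNA-binding genes to pass, and the median of the 18 was 0.08. At an unadjusted p under 0.05 (limma) 2 of them were higher and 3 lower, against 4.89% and 7.29% of all genes. Celf4 differed by -0.90 ± 0.25 and did not pass (adjusted p = 0.179).

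Receptor, channel and kinase genes that passed and were higher included Grik2, Scn9a and Camk4. Other passing receptor genes, higher or lower, are given further below. Grik2, a kainate receptor subunit, was higher by 1.90 ± 0.39 (adjusted p = 0.0459) and was the single gene of 44 listed transmitter and peptide receptors to pass. Scn9a, the voltage-gated sodium channel Nav1.7, read 3.86, 3.50, 3.45 and 3.02 on hypoxic glomus arrays and 5.63, 4.63, 4.38 and 5.14 on hypoxic neuroblast arrays. The groups did not overlap, the difference was 1.49 ± 0.29 (adjusted p = 0.0296), and no other of 29 listed channel genes passed. Camk4, a calcium/calmodulin-dependent kinase, was higher by 1.72 ± 0.27 (adjusted p = 0.00678). Grik2 and Scn9a each failed to pass in 5 of the 8 fits that left out 1 hypoxic array, replicate 1 of the neuroblasts among them (adjusted p = 0.0767 and 0.0666 without it, and up to 0.147 and 0.107), whereas Prlh, Dbh, Rbfox1 and Camk4 passed in all 8.

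Prom1, the stem and progenitor cell surface protein CD133, was the single gene of 33 neuroblast and immature neuron genes to pass. It read 4.62, 5.18, 5.03 and 4.50 on hypoxic glomus arrays and 6.04, 6.26, 6.30 and 5.73 on hypoxic neuroblast arrays, 2 groups that did not overlap (1.25 ± 0.20, adjusted p = 0.00957). Stmn2, a microtubule regulator of growing axons, differed by 0.77 ± 0.20 and Tubb2b, a neuronal tubulin, by 1.27 ± 0.30, and neither passed (adjusted p = 0.141 and 0.0905). Another probe of Tubb2b gave -0.29. Gfra2, Cntn1 and Ret had differences of -1.10, -1.02 and -0.96 and did not pass either (adjusted p = 0.369, 0.363 and 0.316). Of the 33 genes 16 had a difference above 0 and 17 below 0. At an unadjusted p under 0.05 (limma) 8 were higher and 5 lower, against 4.89% and 7.29% of all genes. The list had a median of -0.01, and without neuroblast replicate 1 it held 3 higher genes, Prom1, the growth cone gene Gap43 and the artemin receptor gene Gfra3, with a median of 0.20.

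Among genes of glial or type II cells Gpm6b was higher in neuroblasts. Gpm6b, a proteolipid-family membrane protein of neurons and glia, read 4.95, 5.20, 4.26 and 5.15 on hypoxic glomus arrays and 6.15, 7.61, 7.16 and 7.59 on hypoxic neuroblast arrays. Again replicate 1 was the lowest neuroblast array and the groups did not overlap (2.24 ± 0.38, adjusted p = 0.0119). It was the single gene of 13 measured type II and glial markers to pass, and the median of the 13 was 0.62. At an unadjusted p under 0.05 (limma) 8 of the 13 were higher and 0 lower, against 4.89% and 7.29% of all genes. The mean level of the 13 genes was 5.83 to 6.13 over the hypoxic glomus arrays and 6.32 to 6.95 over the hypoxic neuroblast arrays. S100b, a calcium-binding protein of glia, had non-overlapping groups and a difference of 1.94 ± 0.41 that did not pass (adjusted p = 0.0573), and Sox10, a transcription factor of glia and neural crest, stood at 0.62 (adjusted p = 0.248). Sostdc1 (1.12), Erbb3 (1.01), Cdh19 (0.74) and Gfap (0.54) did not pass either (adjusted p = 0.0592, 0.248, 0.337 and 0.256). Differences at or below 0.10 were those of Mbp (0.10), Ncmap (0.00), Foxd3 (-0.14), Fabp7 (-0.25) and Apoe (-0.45), with adjusted p-values of 0.603 to 0.994. Without neuroblast replicate 1, Cryab, a small heat shock protein, passed beside Gpm6b (1.78, adjusted p = 0.0223).

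Fxyd1, Fads1, Fads2, Acot1 and Aldh1a1 were also higher in neuroblasts. Fxyd1, phospholemman, a regulator of the sodium pump, read 8.23, 7.87, 7.75 and 8.59 on hypoxic glomus arrays and 10.43, 10.86, 9.96 and 10.42 on hypoxic neuroblast arrays. The groups were about 4.95-fold apart with little spread (2.31 ± 0.41, adjusted p = 0.0194). Fads1 and Fads2, desaturases of polyunsaturated fatty acid synthesis, were higher by 1.80 ± 0.32 and 1.85 ± 0.37. Fads2 was the passing gene whose groups overlapped, since hypoxic glomus replicate 4 at 7.48 lay above neuroblast replicate 1 at 7.42. Acot1, a cytosolic acyl-CoA thioesterase, had a mean of 2.32 ± 0.72 on hypoxic glomus arrays and 4.87 ± 0.83 on hypoxic neuroblast arrays (SD, n = 4 each), and Aldh1a1, an enzyme of retinoic acid synthesis, differed by 1.85 ± 0.32 (adjusted p = 0.0162). Fads1 and Aldh1a1 did not pass without hypoxic glomus replicate 3 or hypoxic neuroblast replicate 2 (adjusted p up to 0.0697 and 0.0583), nor did Fxyd1, which also failed without hypoxic glomus replicate 2 (up to 0.0684). Fads2 failed in 6 of the 8 fits (up to 0.136).

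The remaining higher genes outside cell division differed by between 1.01 and 2.63. Mgat4c, a Golgi N-glycan branching enzyme family member, read 3.58, 2.99, 2.91 and 3.04 on hypoxic glomus arrays and 5.20, 4.93, 6.18 and 6.73 on hypoxic neuroblast arrays. Its groups did not overlap (2.63 ± 0.34, adjusted p = 0.00175). Slc35f1, a member of a solute carrier family, differed by 2.18, Art3, of the ADP-ribosyltransferase family, by 2.12, Cmtm5 by 1.95 and Tmeff2, a transmembrane protein with EGF-like and follistatin-like domains, by 1.93. Smaller differences were those of Ttc9b (1.61), the protein phosphatase 2A regulatory subunit gene Ppp2r2b (1.50), the glial receptor gene Gpr37l1 (1.49), Ndrg2 (1.27), the secreted Wnt antagonist gene Frzb (1.26), the focal adhesion gene Parva (1.23), the glutathione transferase gene Mgst1 (1.23), Tmem74 (1.21), Sidt1 (1.16), the nicotinic receptor chaperone gene Tmem35a (1.12) and Upk2 (1.01). Art3 was the least stable of them and failed in 7 of the 8 leave-one-out fits, with an adjusted p of up to 0.143. Tmeff2, Ttc9b, Gpr37l1, Mgst1, Tmem74, Sidt1, Tmem35a and Upk2 failed in 3 to 5 of the 8 fits.

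Genes of cell division were among those higher in neuroblasts. Of 36 measured cell cycle genes, 3 were higher and 0 lower, against 0.198% and 0.215% of all genes. Their median difference was 0.44 against 0.00 over all genes. At an unadjusted p under 0.05 (limma) 16 were higher and 1 lower, against 4.89% and 7.29% of all genes. Of the 36 differences 29 lay above 0 and 7 below, the lowest being Ccnd2 (-0.83), Ccnd1 (-0.43) and Mcm4 (-0.42). Ccnd2 did not pass (adjusted p = 0.0904). Pcna (0.06), Tyms (0.00) and Aurkb (0.00) were nearly level. The promoters of Depdc1, Nusap1, Top2a and Cdk1 are shown with their matches to a pair of motifs known from late cell cycle genes, the cell cycle homology element TTTGAA or TTCGAA and the CCAAT box, each searched on both strands (TTCAAA and ATTGG on the other strand) in the 300 bases from 250 before to 50 after each RefSeq gene start in build GRCr8. The sequences below run 5′ to 3′ along the gene, with matches in capitals. Depdc1 is at chr2:251343031-251343330 (plus strand), Nusap1 at chr3:127057045-127057344 (plus strand), Top2a at chr10:84473044-84473343 (minus strand) and Cdk1 at chr20:19265043-19265342 (plus strand). Depdc1, which is not on the list, Nusap1 and Top2a passed in hypoxia, and Cdk1 passed without neuroblast replicate 1. These 4 were chosen after their values were seen, and no promoter is shown for Ccna2.
Depdc1: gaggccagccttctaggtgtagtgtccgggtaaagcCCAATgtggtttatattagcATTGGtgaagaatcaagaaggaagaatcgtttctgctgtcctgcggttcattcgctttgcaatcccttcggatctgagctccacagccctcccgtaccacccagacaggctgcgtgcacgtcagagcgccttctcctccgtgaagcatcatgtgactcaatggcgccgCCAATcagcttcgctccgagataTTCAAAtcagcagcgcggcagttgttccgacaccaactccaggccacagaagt
Nusap1: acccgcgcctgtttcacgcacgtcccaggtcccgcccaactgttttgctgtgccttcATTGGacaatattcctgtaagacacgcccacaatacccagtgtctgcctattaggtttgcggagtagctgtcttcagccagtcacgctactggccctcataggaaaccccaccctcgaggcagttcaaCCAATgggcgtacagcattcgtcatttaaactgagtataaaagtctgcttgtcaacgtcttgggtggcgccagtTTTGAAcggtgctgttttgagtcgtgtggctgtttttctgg
Top2a: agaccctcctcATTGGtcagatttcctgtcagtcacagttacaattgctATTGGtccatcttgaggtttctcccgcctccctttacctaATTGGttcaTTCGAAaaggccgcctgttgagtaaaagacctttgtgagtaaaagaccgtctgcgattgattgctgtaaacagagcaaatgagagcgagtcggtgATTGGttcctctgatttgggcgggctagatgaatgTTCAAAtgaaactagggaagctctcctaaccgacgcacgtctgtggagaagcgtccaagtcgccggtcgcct
Cdk1: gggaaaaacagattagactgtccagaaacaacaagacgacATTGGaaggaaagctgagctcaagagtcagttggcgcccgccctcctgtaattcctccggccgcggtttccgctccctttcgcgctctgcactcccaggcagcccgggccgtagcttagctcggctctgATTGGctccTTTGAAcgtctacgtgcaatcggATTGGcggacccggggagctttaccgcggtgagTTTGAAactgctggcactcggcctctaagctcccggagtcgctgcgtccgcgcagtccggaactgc
Depdc1 has 1 homology element and 3 CCAAT boxes, Nusap1 has 1 and 2, Top2a has 2 and 4, and Cdk1 has 2 and 3. The homology element lay in 6608 of all 33469 promoters (19.7%), the CCAAT box in 12549 (37.5%) and both in 2662 (7.95%). Among the 28 promoters found for 27 of the 36 cell cycle genes the numbers were 16 (57.1%), 21 (75%) and 14 (50%). A match describes letters in the window and was not tested as a site.

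Nusap1, a microtubule protein of the mitotic spindle, read 6.34, 5.78, 6.12 and 5.80 on hypoxic glomus arrays and 7.12, 7.49, 7.44 and 7.98 on hypoxic neuroblast arrays. All 4 neuroblast arrays lay above all 4 glomus arrays, with replicate 1 the lowest of them. The difference was 1.50 ± 0.22 (adjusted p = 0.00386) and passed in all 8 leave-one-out fits. Ccna2, cyclin A2, read 6.18, 6.62, 5.81 and 5.50 on hypoxic glomus arrays and 6.99, 7.15, 7.36 and 7.41 on hypoxic neuroblast arrays. These groups did not overlap either (1.20 ± 0.22, adjusted p = 0.0250).

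Top2a, the DNA topoisomerase of dividing cells, read 5.31, 5.93, 5.23 and 5.54 on hypoxic glomus arrays and 6.32, 6.84, 6.32 and 6.95 on hypoxic neuroblast arrays. Its difference was 1.10 ± 0.22 (adjusted p = 0.0405). Ccna2 and Top2a each failed in 5 of the 8 leave-one-out fits (adjusted p up to 0.0835 and 0.140), and with each array centred on its median the cell cycle list kept 1 higher gene, against 6 after quantile normalization. Without neuroblast replicate 1 the list held 5 higher genes, the additional ones being Cdk1, the kinase that drives entry into mitosis (1.66, adjusted p = 0.000721), and Cenpf, a kinetochore protein (1.29, adjusted p = 0.0299). On replicate 1 Cdk1 read 6.83, inside the glomus range of 6.56 to 7.42, while the other neuroblast arrays read 8.38, 8.76 and 8.67. Cdkn3, a phosphatase acting on cyclin-dependent kinases, had a difference of 1.90 ± 0.40 that did not pass (adjusted p = 0.0559).

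Outside the list, Depdc1, a gene expressed in dividing cells, read 3.71, 4.42, 3.31 and 3.04 on hypoxic glomus arrays and 5.61, 5.69, 5.69 and 6.11 on hypoxic neuroblast arrays. The neuroblast arrays were close together and far above the glomus arrays (2.15 ± 0.27, adjusted p = 0.00149). Ezh2, the histone H3 lysine methyltransferase of the Polycomb complex, differed by 1.31 ± 0.20 (adjusted p = 0.00603), Ube2t, a ubiquitin-conjugating enzyme of DNA crosslink repair, by 1.26 ± 0.24 (adjusted p = 0.0263), and Gpsm2, which orients the mitotic spindle, by 1.09 ± 0.21 (adjusted p = 0.0317). Ube2t and Gpsm2 each failed in 6 of the 8 leave-one-out fits (adjusted p up to 0.0930 and 0.121). The mean level of the 36 cell cycle genes was 5.87 to 6.23 over hypoxic glomus arrays and 6.29 to 6.78 over hypoxic neuroblast arrays, where replicate 1 gave the 6.29. In normoxia the same mean was 4.97 to 5.24 in glomus cells and 4.97 to 5.10 in neuroblasts, and 0 of the 36 genes passed between the populations, with a median of -0.07. Against normoxia, 16 of the 36 genes were higher in hypoxic glomus cells (9.1% of all genes) and 26 were higher in hypoxic neuroblasts (17.4% of all genes), with 1 lower in each (13.5% and 18.9% of all genes). These comparisons share arrays with the population difference.

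**Figure D2:**
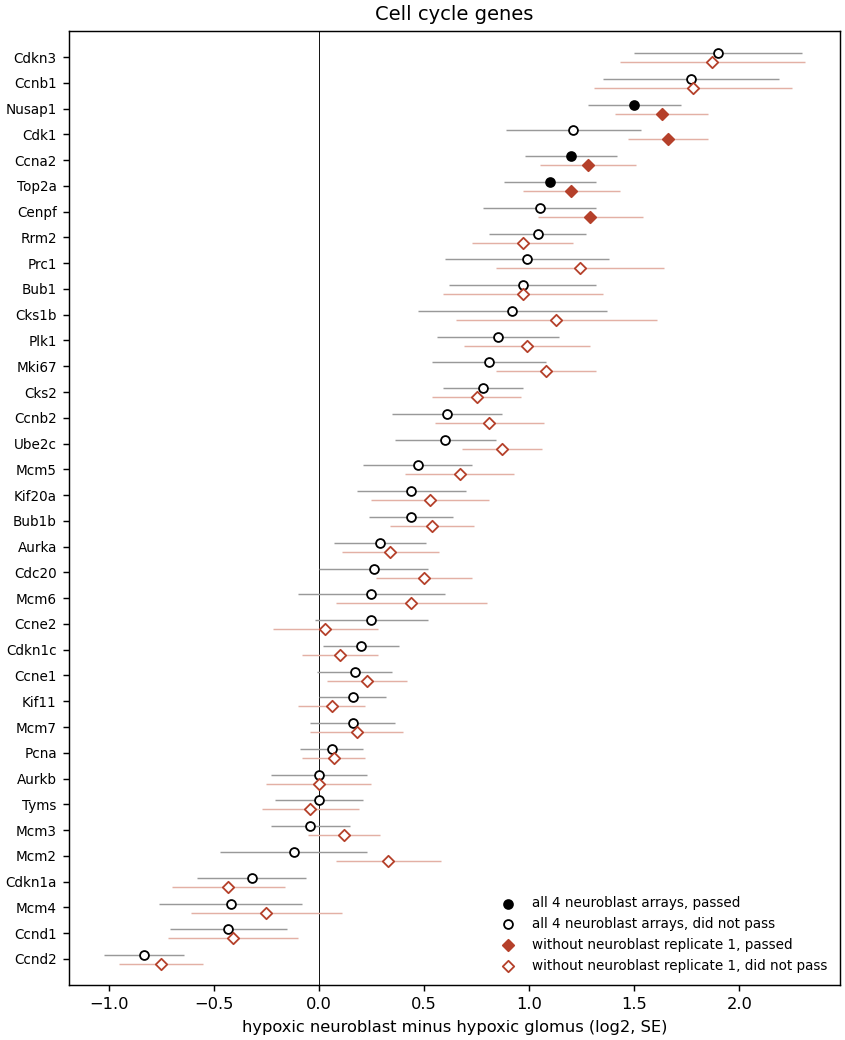
Difference between hypoxic neuroblasts and hypoxic glomus cells (log2, with SE) for the 36 cell cycle genes, with all 4 neuroblast arrays (circles) and without neuroblast replicate 1 (diamonds). Filled symbols passed an adjusted p under 0.05, namely 3 genes with all arrays and 5 without replicate 1.

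Macrophage genes made up the largest listed group on the lower side. Of 18 measured macrophage markers 9 were lower and 0 higher, against 0.215% and 0.198% of all genes, with a median of -1.59. The mean level of the 18 was 5.89 to 6.53 on the hypoxic glomus arrays and 4.58 to 5.18 on the hypoxic neuroblast arrays, replicate 1 giving the 5.18. The same count of 9 was lower without replicate 1, and 7 of the 9 passed in every leave-one-out fit, the exceptions being C1qa and Ctss.

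Pf4, a chemokine of platelets and macrophages, had the largest difference of the 75 genes. It read 9.56, 9.41, 8.33 and 9.18 on hypoxic glomus arrays and 6.28, 3.88, 3.64 and 4.19 on hypoxic neuroblast arrays. Neuroblast replicate 1 stood above the other neuroblast arrays and below every glomus array. The difference of -4.62 ± 0.58 (adjusted p = 0.00149) was -5.22 without replicate 1. Of 7 measured platelet genes Pf4 alone passed and their median was 0.04.

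Cd74, the invariant chain that guides MHC class II antigen presentation, read 9.54, 10.03, 8.99 and 9.85 on hypoxic glomus arrays and 5.74, 4.50, 5.95 and 5.32 on hypoxic neuroblast arrays. The groups were separated by a wide gap (-4.22 ± 0.66, adjusted p = 0.00691). Lyz2, the lysozyme of myeloid cells, had a mean of 7.68 ± 0.83 on hypoxic glomus arrays and 4.53 ± 0.42 on hypoxic neuroblast arrays (SD, n = 4 each) and differed by -3.15 ± 0.50. Fcer1g and Tyrobp, adaptors of activating immune receptors, differed by -2.99 ± 0.40 and -2.29 ± 0.30, and Aif1, the microglia and macrophage protein Iba1, by -2.59 ± 0.37.

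The 3 chains of complement C1q were lower together. C1qc read 7.34, 6.94, 7.10 and 7.22 on hypoxic glomus arrays and 5.24, 4.70, 5.07 and 5.06 on hypoxic neuroblast arrays. The 4 arrays of each population were within a narrow band (-2.13 ± 0.23, adjusted p = 0.000702). C1qa differed by -2.24 ± 0.43 and C1qb by -1.95 ± 0.27. C1qa had an adjusted p of 0.0312, which rose to 0.112 at most when an array was left out.

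Further immune genes passed outside the list. Rgs1, a regulator of G protein signalling in leukocytes, differed by -2.23 ± 0.27, Cfd, complement factor D, by -2.21 ± 0.30, and Ctss, the lysosomal protease cathepsin S and a listed marker, by -2.15 ± 0.39. Gmfg, an actin regulator of blood cells, differed by -1.53, the C-type lectin genes Clec4a3 and Clec4a1 by -1.46 and -1.11, and the cytokine gene Il1b by -1.31. Clec4a1 and Il1b failed in 7 of the 8 leave-one-out fits, Clec4a3 in 6, and Gmfg and Ctss in 5, with adjusted p between 0.0785 and 0.136 at most. Other macrophage markers did not pass, among them Cd68 at -0.34, Csf1r, the receptor for macrophage colony-stimulating factor, at -1.23, and Spi1 at 0.39 (adjusted p = 0.631, 0.309 and 0.623). The deposited values carry no detection call, so no marker could be said to be absent. The part of HNK-1 negative macrophages in these differences was not tested.

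**Figure D3:**
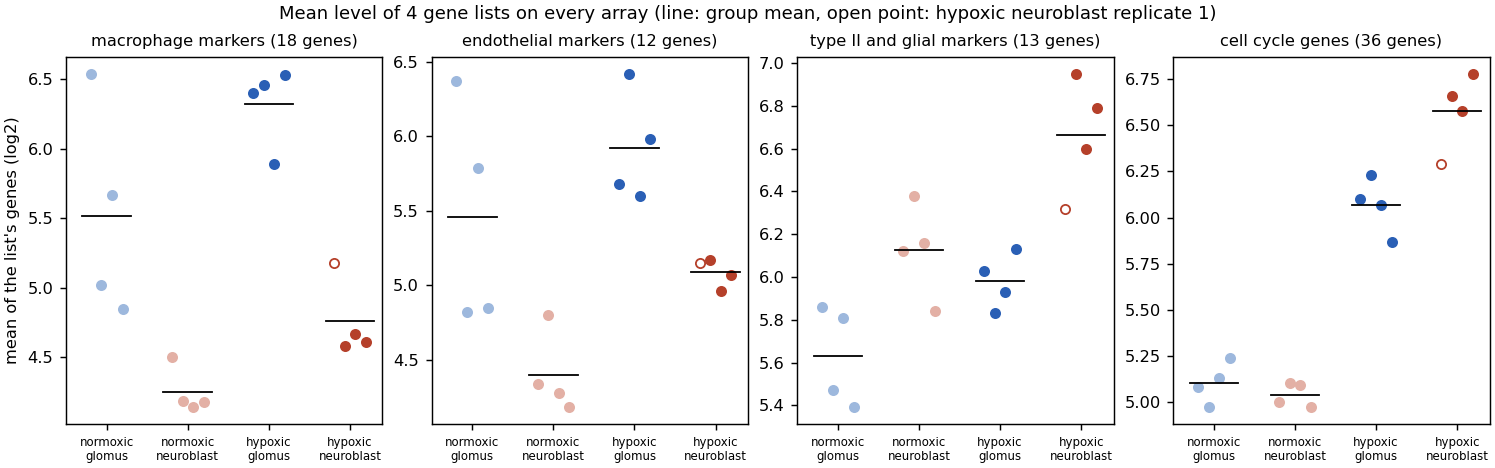
Mean log2 level of macrophage, endothelial, type II and glial, and cell cycle genes on each of the 16 arrays, by group, with lines for group means and an open point for hypoxic neuroblast replicate 1. In hypoxia the neuroblast arrays lie below the glomus arrays in the macrophage (4.58 to 5.18 against 5.89 to 6.53) and endothelial lists and above them in the other lists.

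Cldn5, the tight junction claudin of endothelium, read 9.96, 10.14, 10.41 and 10.12 on hypoxic glomus arrays and 6.05, 7.84, 7.91 and 7.55 on hypoxic neuroblast arrays. The glomus arrays were tightly grouped and every neuroblast array lay lower, replicate 1 most of all. The difference was -2.82 ± 0.34 (adjusted p = 0.00149), or -2.39 without replicate 1. It was the single gene of 12 measured endothelial markers to pass, and the median of the 12 was -0.32. Emcn, Plvap and Cdh5, which mark capillary endothelium, had differences of -1.72, -1.95 and -1.57 with non-overlapping groups and did not pass (adjusted p = 0.0928, 0.199 and 0.248). The endothelial genes Erg, Tie1 and Egfl7 had differences of 0.35, 0.21 and -0.08 that did not pass (adjusted p = 0.798, 0.866 and 0.922). The endothelial mean level was 5.60 to 6.42 on hypoxic glomus arrays and 4.96 to 5.17 on hypoxic neuroblast arrays. Whether endothelial cells in the negative fraction account for Cldn5 was not tested.

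Fn1, fibronectin, read 8.58, 9.19, 9.43 and 8.84 on hypoxic glomus arrays and 5.93, 6.62, 6.28 and 6.79 on hypoxic neuroblast arrays. The groups were far apart (-2.60 ± 0.48, adjusted p = 0.0250), yet the call was lost in 6 of the 8 leave-one-out fits, with an adjusted p of up to 0.0835, and without neuroblast replicate 1 (adjusted p = 0.0608). No other of 14 fibroblast genes passed, their median was 0.17, and the collagen gene Col1a2 and the proteoglycan gene Lum had differences of 0.94 and 1.59 in the other direction (adjusted p = 0.532 and 0.533).

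Of 26 measured G protein and cyclic AMP genes 2 were lower and 0 higher, against 0.215% and 0.198% of all genes. Gngt2, a G protein gamma subunit, read 8.71, 8.82, 8.16 and 8.42 on hypoxic glomus arrays and 6.39, 5.79, 5.60 and 6.49 on hypoxic neuroblast arrays, which did not overlap (-2.46 ± 0.30, adjusted p = 0.00149). Gnas, the stimulatory G protein alpha subunit, read 6.42, 5.84, 6.28 and 5.49 against 4.29, 4.01, 3.98 and 3.78. All neuroblast arrays were lower (-1.99 ± 0.28, adjusted p = 0.00304), but another probe of Gnas gave -0.46 ± 0.29, which did not pass (adjusted p = 0.563) and the 2 probes therefore disagree in size.

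Notum, a secreted lipase that inactivates Wnt proteins, read 7.22, 6.63, 7.55 and 6.70 on hypoxic glomus arrays and 4.79, 5.60, 5.51 and 5.41 on hypoxic neuroblast arrays. It was lower on every neuroblast array (-1.70 ± 0.29, adjusted p = 0.0131) and was the single gene of 22 Wnt feedback genes to pass. The call was lost in 1 leave-one-out fit, without hypoxic glomus replicate 3 (adjusted p = 0.0509). Axin2 and Lgr5, both induced by Wnt signalling in many tissues, differed by -0.61 ± 0.15 and -1.06 ± 0.25 with non-overlapping groups and did not pass (adjusted p = 0.112 and 0.0904).

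Lower receptor genes were the galanin receptor gene Galr2 (-1.07 ± 0.17, adjusted p = 0.00851), the cannabinoid receptor gene Cnr1 (-1.07 ± 0.21, adjusted p = 0.0340) and Nr3c2, the mineralocorticoid receptor gene (-1.10 ± 0.18, adjusted p = 0.0103). Atp2a3, a calcium pump of the endoplasmic reticulum, differed by -1.23 ± 0.18, Rasgrp1, a calcium- and diacylglycerol-responsive Ras activator, by -1.04 ± 0.18, Arhgef12 by -1.11 ± 0.17, and Enpp2, autotaxin, which makes lysophosphatidic acid, by -0.94 ± 0.18. All of these groups were separate. Cnr1 and Enpp2 each failed in 5 of the 8 leave-one-out fits (adjusted p up to 0.132 and 0.0846), and Galr2, Nr3c2, Atp2a3, Rasgrp1 and Arhgef12 passed in all 8.

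The other lower genes were Acp3, an acid phosphatase (-2.19 ± 0.34, adjusted p = 0.00678), Klhl23 (-1.64 ± 0.24, adjusted p = 0.00413), the ciliary gene Cfap206 (-1.87), Gpr155 (-1.64), Pgm2l1, which makes glucose bisphosphate (-1.64), Zbtb44 (-1.44), the protocadherin gene Pcdhb21 (-1.28), C4h2orf42 (-1.21), the rhomboid protease gene Rhbdl2 (-1.09), the vitamin K-dependent carboxylase gene Ggcx (-0.90) and the actin-binding protein gene Synpo2 (-0.84). Acp3 and Klhl23 passed in every leave-one-out fit. The remainder failed in 3 to 6 of the 8 fits, with an adjusted p of up to 0.141 for Ggcx.

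**Figure D4:**
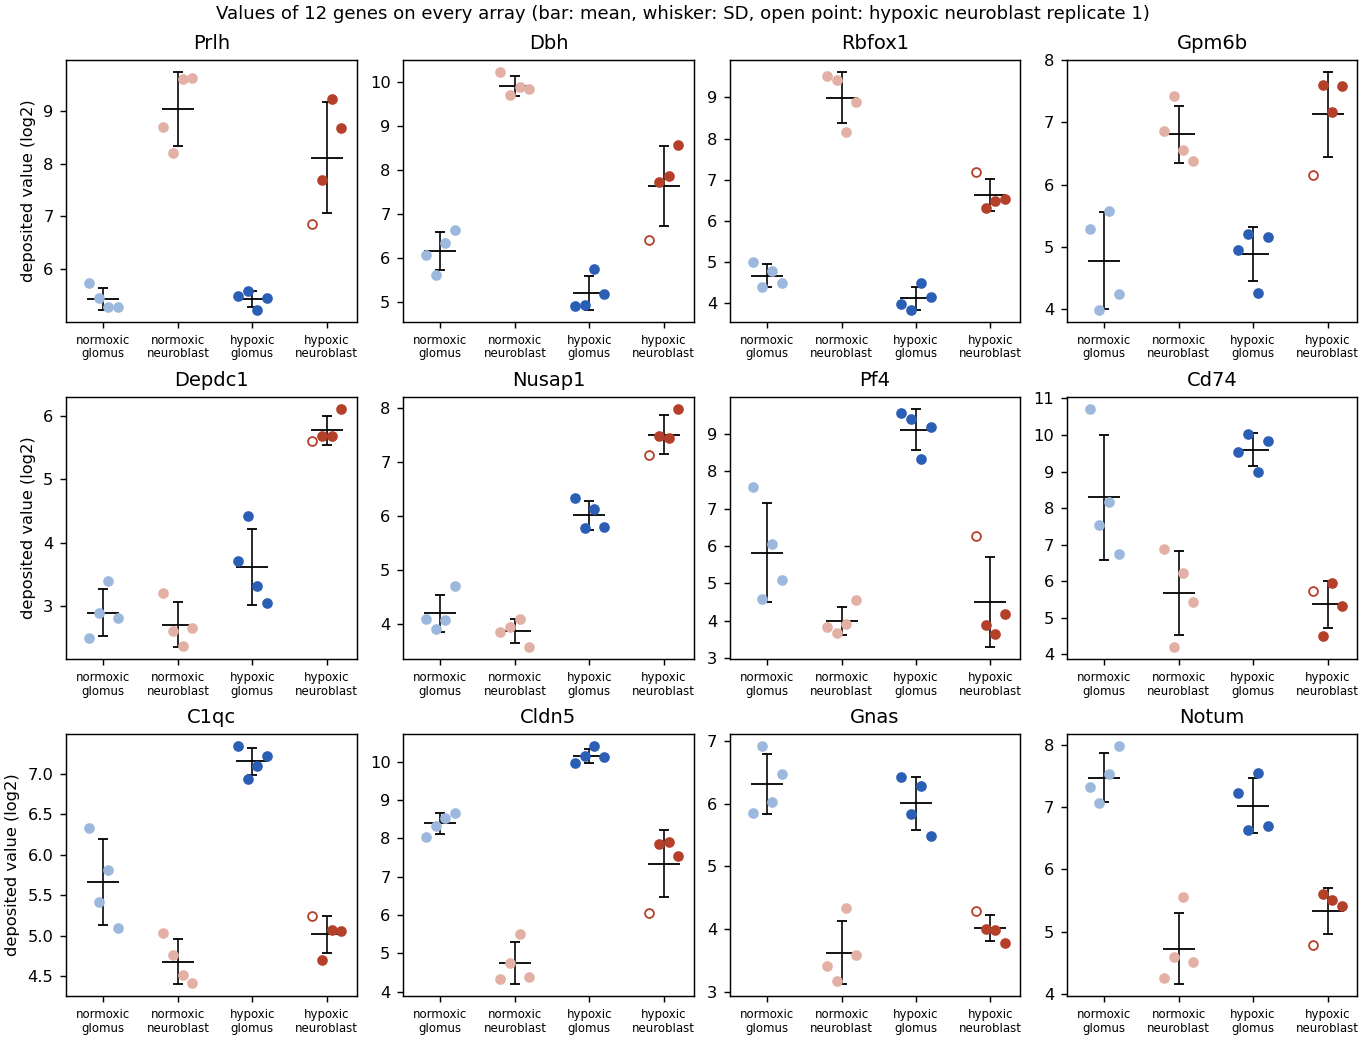
Log2 values of 12 named genes on each of the 16 arrays, grouped by population and oxygen condition (bar for the mean, whisker for the SD, open point for hypoxic neuroblast replicate 1). Red hypoxic neuroblast points lie above the blue hypoxic glomus points for Prlh, Dbh, Rbfox1, Gpm6b, Depdc1 and Nusap1 and below them for Pf4, Cd74, C1qc, Cldn5, Gnas and Notum.

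In 2 lists of glomus cell function no gene passed. None of 26 measured granule and exocytosis genes passed (limma, 1 higher and 5 lower at an unadjusted p under 0.05, median -0.16), and none of 19 oxygen-sensing genes passed (0 and 3, median -0.15). Over all genes 4.89% were higher and 7.29% lower at an unadjusted p under 0.05. Epas1, which encodes HIF-2 alpha and is abundant in glomus cells, read 11.14, 11.30, 11.30 and 10.92 on hypoxic glomus arrays and 9.86, 11.05, 10.46 and 10.75 on hypoxic neuroblast arrays. The groups overlapped (-0.64 ± 0.20, adjusted p = 0.251). Chga, chromogranin A, differed by -0.66 ± 0.24 (adjusted p = 0.330). The vesicle protein gene Sv2c had 1.68 ± 0.39 with all arrays (adjusted p = 0.0905) and passed at 2.16 without neuroblast replicate 1 (adjusted p = 0.00218).

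The enzymes that build the sorted epitope did not pass in hypoxia. B3gat1, the glucuronyltransferase of the HNK-1 carbohydrate, differed by 0.31 ± 0.29 (adjusted p = 0.720) and Chst10, its sulfotransferase, by 0.48 ± 0.28 (adjusted p = 0.533). In the list of 8 measured enzymes and carriers of the epitope 0 passed by limma, and the median was 0.39. At an unadjusted p under 0.05 (limma) 1 was higher and 0 lower, against 4.89% and 7.29% of all genes. In normoxia B3gat1 differed by 1.36 and Chst10 by 0.04. There 2 of the 8 genes passed as higher and 0 as lower, while 2.29% of all genes passed in either direction.

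Hypoxia-inducible factor targets and energy metabolism gave no passing gene either. Among all genes, 4.89% were higher and 7.29% lower at an unadjusted p under 0.05 (limma), the shares to set beside each count below. The 25 other targets had 1 higher and 6 lower genes at an unadjusted p under 0.05 (median -0.13), with P4ha1, a collagen prolyl hydroxylase, at -0.88 ± 0.20 (adjusted p = 0.0727) and Vegfa, the endothelial growth factor, at -0.76 ± 0.20 (adjusted p = 0.141). Glycolysis had 1 and 2 of 17 (median -0.25), oxidative phosphorylation 0 and 2 of 46 (median -0.07) and ribosomal proteins 0 and 0 of 26 (median -0.01). Without neuroblast replicate 1 these medians were 0.01, 0.02 and 0.08, and that of the 25 targets was -0.06. Immediate early genes had 0 higher and 9 lower of 23 at an unadjusted p under 0.05 (median -0.33). Among them Arc and Npas4, both induced by neuronal activity, had differences of -2.08 ± 0.44 and -1.28 ± 0.27 with non-overlapping groups and did not pass (both adjusted p = 0.0557). Endoplasmic reticulum stress genes had 0 higher and 2 lower of 23 at an unadjusted p under 0.05 (median -0.17). All 23 had a difference below 0, against 50.3% of all genes, and without neuroblast replicate 1 this held for 15 of the 23, against 51.3% of all genes (median -0.07).

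At an unadjusted p under 0.05 (limma), 4.89% of all genes were higher and 7.29% lower. The remaining lists without a passing gene were counted in the same way, as genes higher and lower at this threshold. They were sympathoadrenal transcription factors (2 and 0 of 15), cadherins (4 and 4 of 23), pericyte and smooth muscle markers (1 and 1 of 11), T and natural killer cell markers (1 and 1 of 14), neutrophil markers (0 and 0 of 11), erythroid genes (1 and 0 of 4), peripheral neuron markers (2 and 0 of 16) and epithelial markers (1 and 0 of 12). Among 21 neuropeptide genes Prlh alone passed. Npy, neuropeptide Y, differed by 0.72 ± 0.20 and Tac3, the neurokinin B precursor, by -1.64 ± 0.36, both with separate groups, and neither passed (adjusted p = 0.174 and 0.0727).

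Of the 75 genes, 40 also passed between the populations in normoxia (53.3%), 17 higher and 23 lower, and these were 9.62% of the 416 genes that passed in normoxia (2.29% of all genes). The difference had the same sign in both conditions for 67 of the 75. Whether a difference was another one in hypoxia than in normoxia was tested as an interaction, which 24 of 30429 probes passed (0.0789%) and 18 of 18166 genes (0.0991%), 12 with a more negative difference in hypoxia and 6 with a more positive one. An unadjusted p under 0.05 was reached by 2015 probes. Of the 18 genes 4 also passed in hypoxia, namely Scn9a, Sidt1, Depdc1 and Nusap1.

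The 6 largest negative interactions belonged to genes whose mean was higher in normoxic neuroblasts than in each of the other 3 groups. Ntng1, the axon guidance protein netrin-G1, read 5.74, 5.99, 5.43 and 6.57 in normoxic neuroblasts and 2.68, 2.91, 2.78 and 2.94 in hypoxic neuroblasts. Its hypoxic neuroblast values lay in the range of the glomus groups, whose means were 2.75 in normoxia and 3.04 in hypoxia. The interaction was -3.38 ± 0.32 (adjusted p = 0.000166).

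Kcnd2, the potassium channel Kv4.2, had a mean of 8.26 ± 0.25 in normoxic neuroblasts and 4.79 ± 0.78 in hypoxic neuroblasts (SD, n = 4 each), beside 4.27 and 4.16 in the glomus groups (interaction -3.36 ± 0.42, adjusted p = 0.00292). Cdh7, a cadherin, went from 7.51 to 4.13 (-3.18 ± 0.42, adjusted p = 0.00398). The same pattern was found for the secretin receptor gene Sctr (-3.06 ± 0.38, adjusted p = 0.00282) and for Srgap1, a protein of Slit and Robo signalling in axon guidance (-2.23 ± 0.33, adjusted p = 0.0120). Scn9a went from 8.41 to 4.95 and kept a population difference in hypoxia (-2.71 ± 0.41, adjusted p = 0.0120). In hypoxia the 5 genes other than Scn9a had population differences of -0.21 to 0.64, and none passed. The highest of these, that of Kcnd2, was 1.00 without neuroblast replicate 1 and did not pass there either (adjusted p = 0.0809). The 6 negative interactions passed under each of 23 alternatives run.

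The 6 positive interactions were of 2 kinds. Depdc1 (2.35 ± 0.38, adjusted p = 0.0237) and Nusap1 (1.82 ± 0.30, adjusted p = 0.0298) had no population difference that passed in normoxia (-0.19 and -0.33) and differed in hypoxia, as given above. Lgr5, a receptor for R-spondins, had normoxic means of 8.86 in glomus cells and 5.46 in neuroblasts and hypoxic means of 9.08 and 8.02, so its difference went from -3.40 to -1.06 (2.33 ± 0.35, adjusted p = 0.0123). Kcnk3, the acid- and oxygen-sensitive background potassium channel TASK-1, went from -1.74 to -0.14 (1.60 ± 0.28, adjusted p = 0.0462), Nav2, a cytoskeletal protein of neurite growth, from -1.78 to -0.12 (1.66 ± 0.30, adjusted p = 0.0478), and Scd, stearoyl-CoA desaturase, from -1.27 to 0.14 (1.41 ± 0.23, adjusted p = 0.0230). Pf4 had an interaction of -2.79 that did not pass (adjusted p = 0.379), so its larger hypoxic difference is not distinguished from that in normoxia. Of the positive interactions Lgr5 failed under 1 of the 23 alternatives, Depdc1 and Scd under 8, Nusap1 under 10, Kcnk3 under 16 and Nav2 under 18. The count of interactions rested on single arrays, falling to 11 probes without normoxic glomus replicate 2 or normoxic neuroblast replicate 4, to 12 without normoxic glomus replicate 3 or 4 and to 13 without hypoxic glomus replicate 2 or 4. With each array centred on its median 0 positive and 11 negative interactions passed.

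**Figure D5:**
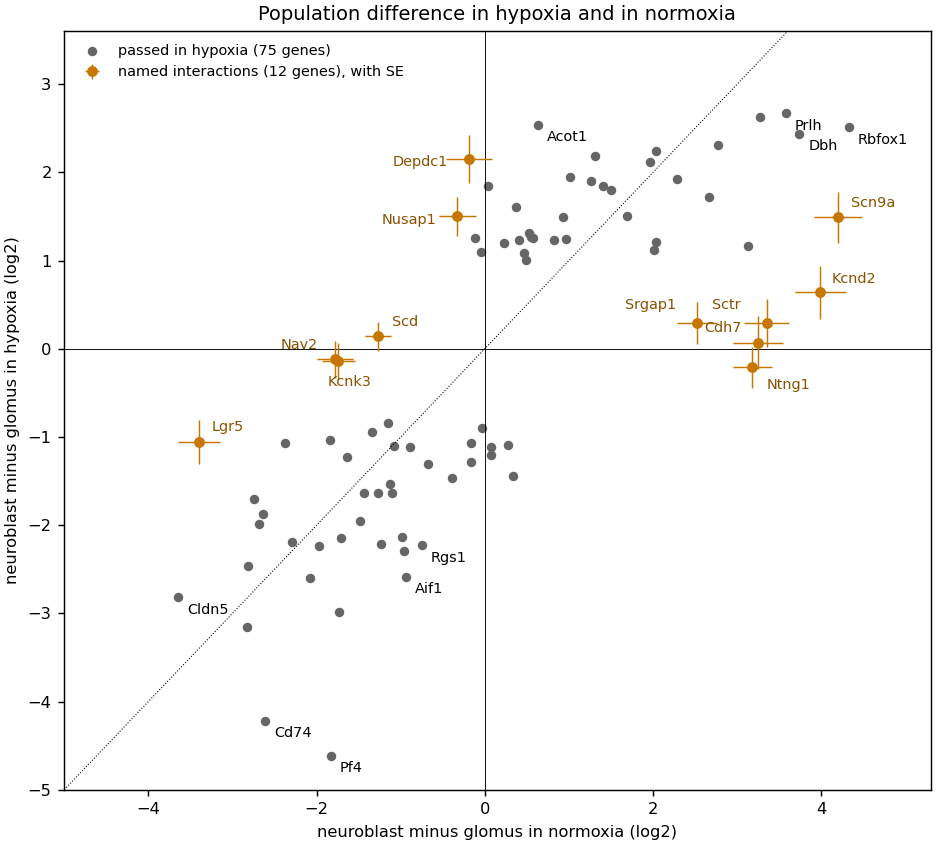
Difference between neuroblasts and glomus cells in normoxia (horizontal axis) and in hypoxia (vertical axis), log2, for the 75 genes that passed in hypoxia (grey) and the 12 named interactions (orange, with SE in both directions), with a dotted line of equal differences. Of the grey points 67 have the same sign in both conditions, while Ntng1, Kcnd2, Cdh7, Sctr and Srgap1 lie far to the right with hypoxic differences of -0.21 to 0.64.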

How the data were processed

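The authors deposited log2 expression values of 30429 probes of an Affymetrix rat array for 16 samples. Per the submitters' processing notes the values came from Transcriptome Analysis Console. Its version, the background correction and the normalization remain not given in the sources used here, and the log base was inferred from the range of the values. The array annotation names 1 gene for 18511 probes, several for 575 and none for 11343. Of the single-gene probes 18394 matched the RefSeq gene table, with the same symbol.

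Values were used as deposited, with no filter on dim probes. limma 3.58.1 in R 4.3.3 fitted 1 mean for each of the 4 groups of 4 arrays (lmFit and eBayes without trend, 12 residual degrees of freedom). Tests were two-sided with Benjamini-Hochberg adjustment across the full set of probes, and an adjusted p under 0.05 passed. Differences are neuroblast minus glomus on the log2 scale, ± limma's standard error. Where several single-gene probes named a gene, the probe with the highest mean over the 16 arrays stood for it. The number of arrays limits the precision. Tables were made in Python 3.11.15 and plots in matplotlib 3.10.9.

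The members and the 31 gene lists were chosen with earlier results of these data known. The naming rule took the 15 largest rises and 15 largest falls that passed with non-overlapping groups. It also took up to 4 genes of smallest p per list, preset genes, and the 6 largest interactions in each direction. Not every list gene that met this rule is named in the text, and none that met it in the cadherin list is. The other passing genes, further list members and genes gained without hypoxic neuroblast replicate 1 were named after their values were seen, and lists of other blood, epithelial, neuron, metabolic and stress genes are given mostly as counts. A planned permutation test of mean list levels was left out, since list levels are given without a test. Same-numbered samples of the populations had deviations from their group means that correlated at 0.01, 0.07, 0.03 and -0.10, so the numbers were not taken as pairs. Alternatives were other scalings, array weights, a variance trend, a filter on dim probes, the mean of a gene's probes, the hypoxic arrays alone, a replicate block, other thresholds, and leaving out each array. Promoters came from RefSeq, build GRCr8.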

Additional observations from a re-analysis of the deposited data

Results flagged for a closer look

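Within the hypoxic groups of 4 arrays, 19 of 316 group tests over 158 named genes found a highest or lowest array whose gap to its nearest neighbour exceeded Dixon's critical share of the group's range. Chance flags about 1 in 20 groups. Hypoxic neuroblast replicate 1 was the highest of its group for C1qa (share 0.895), Ezh2 (0.855) and Il1b (0.853), and replicate 4 the highest for Depdc1 (0.840). Hypoxic glomus replicate 3 was the lowest of its group for Clec4a3 (0.928), Ctss (0.888), Tyrobp (0.894) and Fads1 (0.846), and the highest for Pcdhb21 (0.904). Hypoxic glomus replicate 4 was the lowest for Cdkn3 (0.833), Ggcx (0.885) and Gpr37l1 (0.883), and the highest for Chga (0.833), Chst10 (0.882) and Fads2 (0.861). Hypoxic glomus replicate 2 was the lowest for Npy (0.971) and Slc6a2, the noradrenaline transporter gene (0.983), and replicate 1 the highest for Npy1r (0.871) and Tac3 (0.894).

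The population difference in hypoxia minus that in normoxia passed the interaction test for 12 named genes. It was -3.38 for Ntng1, -3.36 for Kcnd2, -3.18 for Cdh7, -3.06 for Sctr, -2.71 for Scn9a and -2.23 for Srgap1. In the other direction it was 2.35 for Depdc1, 2.33 for Lgr5, 1.82 for Nusap1, 1.66 for Nav2, 1.60 for Kcnk3 and 1.41 for Scd.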

How the results depend on the processing

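No passing gene of the 75 changed direction under any alternative run, and 20 of them passed in all 16 settings. In 74 of the 75 the groups did not overlap, so leaving out or weighting arrays could not have reversed the direction. Against 86 probes in the main comparison, 25 passed when the 8 hypoxic arrays were fitted alone (7 higher, 18 lower), 151 after quantile normalization, 35 at an adjusted p under 0.01, and 59 to 119 when 1 hypoxic array was left out. Centring each array on its median left 76 and moved the share of higher calls from 48.8% to 36.8%. With the replicate number as a replicate block 130 probes passed, although no sample correlated best with its own number. The interaction count of 24 went to 83 with array weights, 11 with median centring and 11 to 35 when 1 array was left out, and to 19 with the replicate block. The small hypoxic difference of Cdh7 (0.07) became -0.01 with array weights, -0.04 after quantile normalization and ran from -0.06 to 0.30 without single arrays. That of Kcnk3 became 0.02 after quantile normalization and that of Nav2 (-0.12) ran from -0.27 to 0.05 without single arrays, turning positive without hypoxic neuroblast replicate 3. The cause of these shifts was not tested. The fit of hypoxic arrays alone has fewer samples and takes its estimate of the spread from those arrays only. Signal over background could not be judged, since the table holds no background value.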
